A study of Mus musculus with 4 samples.

Results

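The genes of 8 core transcription factors of the macrophage lineage were examined in ATAC-seq peak lists of large peritoneal macrophages (LPMs): Spi1, Runx1, Maf, Mef2a, Mef2c, Mitf, Tfec and Zeb2. ATAC-seq marks open chromatin, where the Tn5 transposase can cut, so the values below describe the accessibility of these loci and not the amount of their RNA. Overlapping peaks (by 1 bp or more) from the 4 libraries were joined into merged regions, and a merged region was assigned to 1 of the 8 genes when the start site nearest to its midpoint was that gene's or when it overlapped the gene body. This gave 223 regions out of 70744. Maf and Runx1 had 47 regions each, Zeb2 had 41, Mef2a 31, Mitf 25, Mef2c 15, Tfec 9 and Spi1 8.

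The mice were C57BL/6 animals of 9 weeks. Both groups carried floxed Rxra and Rxrb alleles (RXRabfl/fl), and the LysMCre+RXRabfl/fl group also carried a Cre driven by the lysozyme M gene, which deletes floxed alleles in myeloid cells. Each library came from 40000 sorted LPMs and all 4 belonged to library batch 1. The RXRabfl/fl libraries are called WT1 and WT3 and the LysMCre+RXRabfl/fl libraries KO1 and KO2, as titled by the submitters. The sources do not say how many animals each library came from, so p-values measure the spread between these samples only, and the study left out samples that did not cluster with their group, which can make that spread look smaller. How completely the floxed alleles were deleted was not analysed here.

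PU.1, the product of Spi1, is the ETS-family factor that opens myeloid enhancers, and RUNX1 is the runt-domain factor that switches on Spi1 during blood development and binds to it with its partner CBFβ. MAF is a large leucine-zipper factor that restrains macrophage proliferation. MEF2A and MEF2C are MADS-box factors of muscle, brain and myeloid cells. MITF and TFEC belong to the helix-loop-helix family that controls lysosomal genes and pairs as dimers. ZEB2 is a zinc-finger repressor that maintains macrophage identity. RXRα and RXRβ, the factors deleted here, are nuclear receptors that bind direct repeats as homodimers or with partners such as the retinoic acid receptors.

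The sequences of 8 windows of 201 bp centred on a peak summit are shown for regions named below. The accessibility values do not depend on these sequences. All are on the plus strand of mm10 (GRCm38.p6) and overlap no RefSeq exon. A region is named by its gene and by the distance of its midpoint from the nearest RefSeq start of that gene, with a minus sign for upstream. Capitals mark words of a fixed set of factor motifs on either strand: GAGGAAGT for PU.1, TGTGGT for RUNX, TGCTGAC for a MAF half-site, CACCTG for ZEB, TCACGTG for MITF and TFE factors, AGATAA for GATA, TTGCNNAA for C/EBP, TGANTCA for AP-1, and by name the MEF2, DR1, DR5 and CTCF elements. The Spi1 window lies near the known position of the upstream regulatory element of that gene, the Mef2c, Zeb2 +60.8 kb and Tfec windows belong to the regions of highest mean fold enrichment of their genes, the mean being taken over the libraries that called a region, the Zeb2 +24.5 kb window had the lowest log2 change of all 8 genes, and the other 3 are those that passed the test once WT3 was left out.
Spi1 +754 bp (chr2:91083000-91083200): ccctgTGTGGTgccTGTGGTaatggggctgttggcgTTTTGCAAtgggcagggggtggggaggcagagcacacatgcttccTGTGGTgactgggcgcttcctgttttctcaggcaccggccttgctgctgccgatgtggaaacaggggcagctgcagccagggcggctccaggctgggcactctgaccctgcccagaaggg
Mef2c -5.3 kb (chr13:83518368-83518568): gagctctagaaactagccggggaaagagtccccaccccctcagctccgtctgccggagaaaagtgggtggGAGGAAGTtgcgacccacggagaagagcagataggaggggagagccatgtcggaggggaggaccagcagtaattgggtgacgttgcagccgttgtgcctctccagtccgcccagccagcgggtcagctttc
Zeb2 +60.8 kb (chr2:45049386-45049586): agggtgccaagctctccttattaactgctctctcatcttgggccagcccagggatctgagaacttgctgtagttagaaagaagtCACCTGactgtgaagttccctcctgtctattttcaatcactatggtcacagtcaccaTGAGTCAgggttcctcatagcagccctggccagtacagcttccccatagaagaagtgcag
Tfec -45.3 kb (chr6:16943584-16943784): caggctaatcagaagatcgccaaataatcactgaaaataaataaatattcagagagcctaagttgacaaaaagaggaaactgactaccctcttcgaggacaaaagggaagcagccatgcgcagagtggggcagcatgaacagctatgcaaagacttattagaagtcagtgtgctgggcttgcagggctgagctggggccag
Zeb2 +24.5 kb (chr2:45085680-45085880): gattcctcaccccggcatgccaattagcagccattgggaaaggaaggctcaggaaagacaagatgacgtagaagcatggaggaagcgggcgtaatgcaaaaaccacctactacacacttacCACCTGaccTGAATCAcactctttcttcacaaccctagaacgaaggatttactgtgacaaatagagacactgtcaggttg
Zeb2 -102.6 kb (chr2:45219914-45220114): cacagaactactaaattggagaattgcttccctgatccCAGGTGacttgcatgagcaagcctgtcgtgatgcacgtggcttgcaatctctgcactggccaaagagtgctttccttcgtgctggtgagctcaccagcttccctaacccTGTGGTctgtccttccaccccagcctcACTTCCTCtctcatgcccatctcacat
Mef2a -112.1 kb (chr7:67484856-67485056): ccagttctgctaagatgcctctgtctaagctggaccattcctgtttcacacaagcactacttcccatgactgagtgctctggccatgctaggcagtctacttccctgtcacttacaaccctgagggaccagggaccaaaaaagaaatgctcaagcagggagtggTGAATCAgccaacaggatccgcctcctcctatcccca
Maf +212.4 kb (chr8:115494448-115494648): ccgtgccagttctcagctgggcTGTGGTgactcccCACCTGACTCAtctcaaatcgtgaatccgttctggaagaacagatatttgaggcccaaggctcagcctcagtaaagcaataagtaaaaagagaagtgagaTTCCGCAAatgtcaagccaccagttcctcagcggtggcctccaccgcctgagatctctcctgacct

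The Spi1 window held 3 RUNX words and 1 C/EBP word. The Mef2c window held the PU.1 word, the Zeb2 -102.6 kb window held PU.1, RUNX and ZEB words, and the Maf +212.4 kb window held RUNX, ZEB, C/EBP and AP-1 words, the ZEB and AP-1 words sharing bases. No word of the set lay in the Tfec window. These matches are letters in the reference genome and no binding was measured.

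The 4 libraries differed in how much they detected, and this touched every count. The deposited lists held 38048 peaks for WT1, 16097 for WT3, 65421 for KO1 and 55581 for KO2. Read totals were not used here, but the number of tags stacked at a summit (the pileup) can be solved from the deposited values, and its median over regions called in all 4 libraries was 97 in WT1, 20 in WT3, 99 in KO1 and 65 in KO2. WT3 therefore stood apart by its few peaks and low pileups. By the lowest local background, solved from the same values, WT3 lay close to KO2. Whether WT3 was sequenced less deeply was not tested. The sorted cell type was checked by called regions at the start sites of marker genes. Of 6 macrophage markers, 4 had one in each RXRabfl/fl library and all 6 in each LysMCre+RXRabfl/fl library, and the 5 LPM markers had 5 in WT1, 3 in WT3, 5 in KO1 and 5 in KO2, with Gata6, the LPM-defining factor, called in all 4. T cell, mast cell and mesothelial markers had none, B cell markers at most 1 of 6 and granulocyte markers at most 2 of 5.

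The 8 genes were called open in every library, but most of their separate regions were not. Of the 223 regions, 109 were called in WT1, 38 in WT3, 186 in KO1 and 184 in KO2. All 4 libraries shared 37 regions, or 16.6%, against 21.5% of all merged regions. A further 63 regions, or 28.3% against 25.5% of all, were called in WT1, KO1 and KO2 and missed in WT3. These shares lay near those of all regions. The largest departure was in regions called by 1 KO library alone, where KO2 had 32 of the 223, or 14.3% against 6.68% of all regions, and KO1 had 34, or 15.2% against 18.3%.

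**Figure D1:**
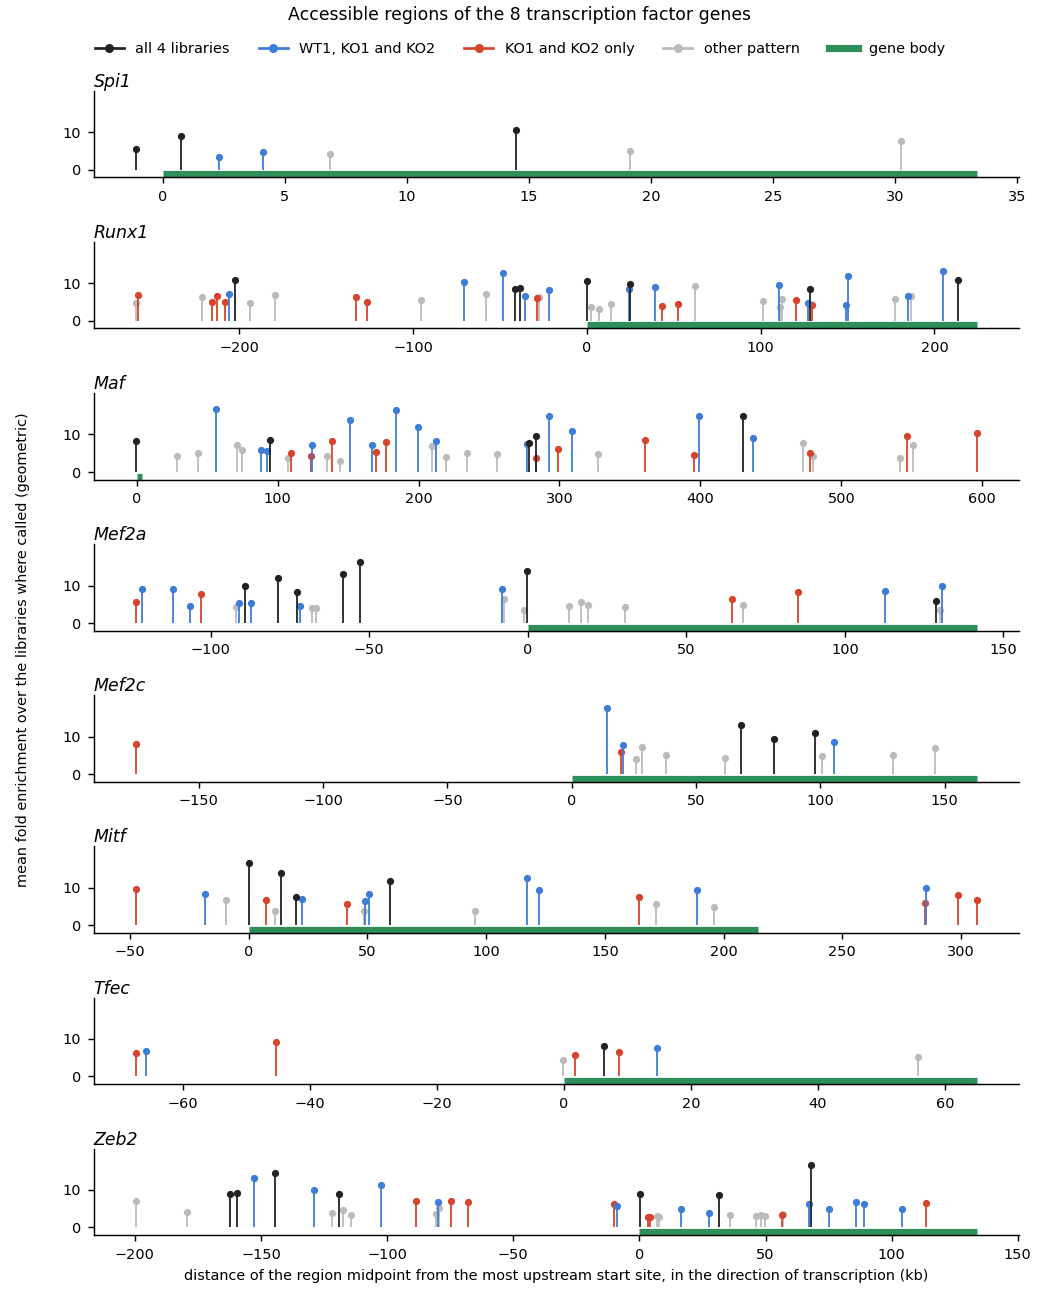
Each stem is 1 merged region, placed by the distance of its midpoint from the gene's most upstream start (kb, in the direction of transcription), with its height the geometric mean fold enrichment over the libraries that called it and its colour the libraries that called it. The green bar is the gene body, so 46 of the 47 Maf regions are seen to lie downstream of a gene of 3.64 kb, while Spi1 has its 8 regions packed close to and within the gene.

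The genes differed in how their regions were laid out. Of the 223 regions, 15 touched a promoter window (1 kb upstream to 200 bp downstream of a start), 89 lay in introns, 68 upstream of the gene, 50 downstream and 1 in an untranslated exon. Maf, a gene of 3.64 kb on chromosome 8, had 1 region at its start and 46 strung along the gene-poor stretch beyond its end, the farthest 596.3 kb from the start. Runx1 regions were split between 22 upstream and 22 intronic ones over 473.5 kb. Spi1 had 2 promoter and 6 intronic regions over 31.7 kb. For 20 regions that overlapped a gene body, the nearest start was that of another gene, such as Mir5129 within Zeb2, and 119 regions lay outside the bodies.

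Start sites were the most evenly shared part of these loci. RefSeq places the transcripts of the 8 genes at 17 separate start groups, of which 14 had a called region in at least 1 library: 11 in WT1, 9 in WT3, 13 in KO1 and 13 in KO2. Among the 15 regions at start sites, 8 were called in all 4 libraries, or 53.3% against 54.1% of all regions at start sites. Away from start sites, 29 of 208 were called in all 4, or 13.9% against 13.1%. The 3 start groups without a called region were the most upstream and the most downstream of the 4 Mef2c starts and the most downstream Mitf start, that of the melanocyte form. Mef2c -1.3 kb (chr13:83571948-83572606), called in all 4 libraries, ended just outside the window of the most downstream Mef2c start (83573607).

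**Figure D2:**
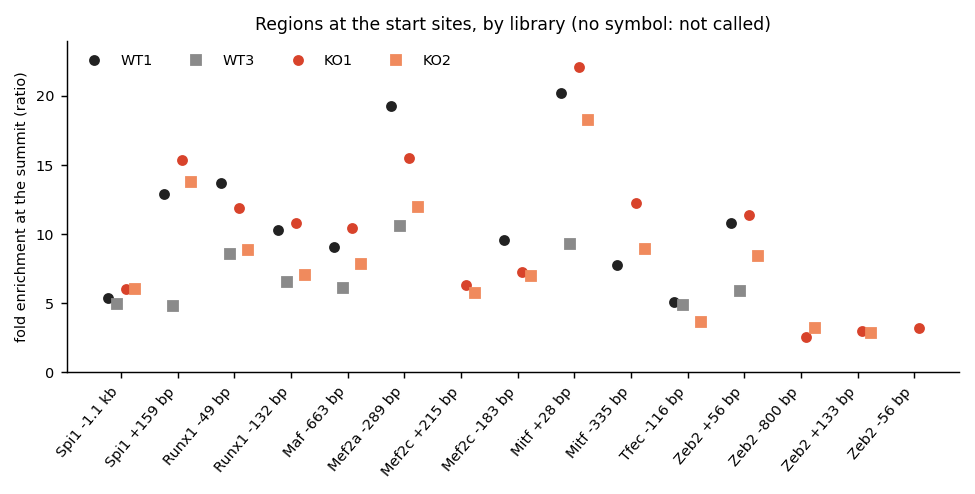
Fold enrichment at the summit (a ratio to the local background) is plotted by library for the 15 regions at start sites, ordered by gene, and a missing symbol means that the library did not call the region. WT3 has the lowest value in each region that all 4 libraries called, and the Zeb2 regions at -800 bp, +133 bp and -56 bp have symbols of KO1 or KO2 alone.

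Spi1 had 2 start groups 14.3 kb apart. At the start of the classical PU.1 transcript (Spi1 +159 bp, chr2:91096448-91097270) the fold enrichment was 12.9 in WT1, 4.83 in WT3, 15.4 in KO1 and 13.7 in KO2. WT3 was low and the other 3 libraries were close together. After each library was centred on its median, both KO values exceeded both WT values, and the log2 change of 0.51 ± 0.23 (SE, n = 2 per genotype) was the highest of the 37 regions, with a limma adjusted p of 0.209. Without WT3 the change was -0.06, so its sign rested on that library. Without WT1, which left WT3 as the single RXRabfl/fl library, it was 0.75, short of the limit of 1 used for a call.

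The more upstream Spi1 start lies near the upstream regulatory element, an enhancer on which PU.1 and RUNX1 act to sustain Spi1 expression. The region next to it (Spi1 +754 bp, chr2:91082856-91083462), whose window is printed above, was intronic to the longer transcript. The fold enrichment there was 11.2 in WT1, 6.71 in WT3, 9.84 in KO1 and 8.51 in KO2, with a log2 change of -0.29 ± 0.21 (SE, n = 2 per genotype, limma adjusted p = 0.434). The genotypes overlapped before centring, and after it both KO values were below both WT values. The Spi1 -1.1 kb region just before this start ranged only from 4.98 to 6.03. No Spi1 region was called in both KO libraries and neither WT library.

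Runx1 has a distal and a proximal promoter, which give isoforms used at different stages of blood development. At the distal start (Runx1 -49 bp, chr16:92825811-92826435) the fold enrichment was 13.7 in WT1, 8.55 in WT3, 11.9 in KO1 and 8.88 in KO2, and at the proximal start (Runx1 -132 bp, chr16:92697166-92697756) it was 10.3, 6.54, 10.8 and 7.02 in the same order. Both promoters were thus open in both genotypes. Their log2 changes were -0.44 ± 0.21 and -0.28 ± 0.22 (SE, n = 2 per genotype), with limma adjusted p of 0.242 and 0.469. On pileup in place of fold enrichment the proximal promoter had a log2 change of 0.78 (limma adjusted p = 0.0556), the opposite sign. The highest mean fold enrichment of Runx1 was that of an intronic region (Runx1 +76.3 kb, chr16:92620702-92621444), with 9.51 in WT1, 20.00 in KO1, 12.2 in KO2 and no call in WT3.

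Maf had a broad promoter region (Maf -663 bp, chr8:115706751-115708362) of 1612 bp. Its fold enrichment was 9.09 in WT1, 6.12 in WT3, 10.5 in KO1 and 7.87 in KO2, with a log2 change of -0.08 ± 0.22 (SE, n = 2 per genotype, limma adjusted p = 0.848). Several distal regions were higher than the promoter. Maf +56.5 kb (chr8:115650107-115650753) reached 11.9 in WT1, 22.1 in KO1 and 18.2 in KO2 and was not called in WT3. Maf +430.5 kb (chr8:115276137-115276659) was called in all 4 libraries, with 16.6 in WT1, 9.05 in WT3, 24.4 in KO1 and 13.5 in KO2. Which of them ranked first depended on the libraries averaged, Maf +56.5 kb over the libraries that called each region and Maf +430.5 kb over WT1, KO1 and KO2, with geometric means there of 17.6 for Maf +430.5 kb and 16.9 for Maf +56.5 kb. The strongest Maf region called in the KO libraries alone was the one farthest from the gene (Maf +596.3 kb), with 11.0 in KO1 and 9.62 in KO2.

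The MEF2 genes differed at their starts. All 7 Mef2a transcripts share a start, and its region (Mef2a -289 bp, chr7:67372579-67373715) had a fold enrichment of 19.3 in WT1, 10.6 in WT3, 15.5 in KO1 and 11.98 in KO2. Its log2 change was -0.43 ± 0.21 (SE, n = 2 per genotype, limma adjusted p = 0.236). The highest Mef2a region lay outside the gene (Mef2a -53.0 kb, chr7:67425230-67426402), with 20.02, 10.8, 18.9 and 16.7 in WT1, WT3, KO1 and KO2, so that Mef2a was as open far upstream as at its start.

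Mef2c had weaker regions within its promoter windows. The region closest to a start (Mef2c -183 bp) had a fold enrichment of 9.54 in WT1, 7.29 in KO1 and 6.94 in KO2 and was not called in WT3. That of the start group just before it (Mef2c +215 bp) was called in the KO libraries alone, at 6.32 and 5.71. Higher values stood in introns. Mef2c -5.3 kb (chr13:83518045-83518666), with the PU.1 word in its window, was the strongest and had 18.8 in WT1, 20.4 in KO1 and 14.3 in KO2, and Mef2c -1.3 kb, before the most downstream start, had 18.1 in WT1, 6.02 in WT3, 20.2 in KO1 and 13.8 in KO2.

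Among the MiT factors, the most upstream Mitf start (Mitf +28 bp, chr6:97806764-97807407), which gives the widely expressed form, had the highest fold enrichment of all start regions in 3 of 4 libraries: 20.2 in WT1, 22.1 in KO1 and 18.2 in KO2, with 9.27 in WT3. Its log2 change was 0.18 ± 0.21 (SE, n = 2 per genotype, limma adjusted p = 0.627), and -0.24 without WT3. The second Mitf start (Mitf -335 bp) had 7.79 in WT1, 12.2 in KO1 and 8.92 in KO2. Tfec, whose expression is limited to macrophages and related cells, had a weak start region (Tfec -116 bp, chr6:16898356-16898758) with 5.05 in WT1, 4.85 in WT3 and 3.67 in KO2. KO1, the library with most peaks, did not call it. Only 22 of all 70744 regions had this pattern. The pileups of Tfec -116 bp were low, at 14 in WT1, 9 in WT3 and 7 in KO2. The lowest pileup of a peak on the lowest background was 6 in WT3 and 6 in KO2. Tfec +6.4 kb, an intronic region, was called in all 4 libraries, with 8.48 in WT1, 5.82 in WT3, 10.05 in KO1 and 8.84 in KO2. Tfec -45.3 kb (chr6:16943560-16943887) was called in KO1 at 10.3 and KO2 at 8.18 and in neither WT library. Over KO1 and KO2 the geometric mean was 9.43 at Tfec +6.4 kb and 9.18 at Tfec -45.3 kb, so Tfec -45.3 kb ranked first only where the mean was taken over the libraries that called a region.

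Zeb2 had 3 start groups. The most upstream (Zeb2 +56 bp, chr2:45117119-45117653) had a fold enrichment of 10.8 in WT1, 5.88 in WT3, 11.4 in KO1 and 8.44 in KO2, with a log2 change of -0.07 ± 0.21 (SE, n = 2 per genotype, limma adjusted p = 0.860). The regions at the other 2 start groups were weak, between 2.56 and 3.17, and were called in the KO libraries alone. Over all 4 libraries the highest Zeb2 region was intronic (Zeb2 +60.8 kb, chr2:45049226-45049733), with 23.2 in WT1, 14.6 in WT3, 15.9 in KO1 and 14.6 in KO2. Zeb2 -144.6 kb (chr2:45261780-45262382), upstream of the gene, had 18.8, 6.96, 18.96 and 18.5 in the same order and was the higher of the pair over WT1, KO1 and KO2, with geometric means of 18.8 and 17.5.

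To ask whether the deletion changed the openness of these loci, log2 fold enrichment was compared between genotypes with limma in regions called in all 4 libraries, and a region was called changed at an adjusted p under 0.05 with a log2 change past 1. Of the 37 regions of the 8 genes, 0 passed in either direction. Over all 15199 regions, 0.0395% passed as higher in LysMCre+RXRabfl/fl and 0.0461% as higher in RXRabfl/fl, so few calls were made anywhere. At an unadjusted p under 0.05, 3 of the 37 regions passed, against 22.0% of all tested. The median log2 change of the 37 was -0.08, and that of all tested regions was -0.09. With 2 libraries per genotype, an exact permutation test of a single region could not give a two-sided p below 0.333.

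The lowest log2 change among the 37 was that of an intronic Zeb2 region (Zeb2 +24.5 kb, chr2:45085572-45086061), where the fold enrichment was 13.0 in WT1, 8.18 in WT3, 10.3 in KO1 and 4.91 in KO2. KO2 was the lowest library there by fold enrichment. By pileup WT3 was the lowest, with 99 in WT1, 26 in WT3, 102 in KO1 and 67 in KO2. The log2 change was -0.90 ± 0.26 (SE, n = 2 per genotype, limma adjusted p = 0.0880), and the pileup gave -0.16 (limma adjusted p = 0.657). Without WT1 it was -1.05 (limma adjusted p = 0.00467), the single member call in that fit, in which 3.55% of all regions were called higher in RXRabfl/fl. The lone remaining library of a genotype is there assumed to vary like the others.

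**Figure D3:**
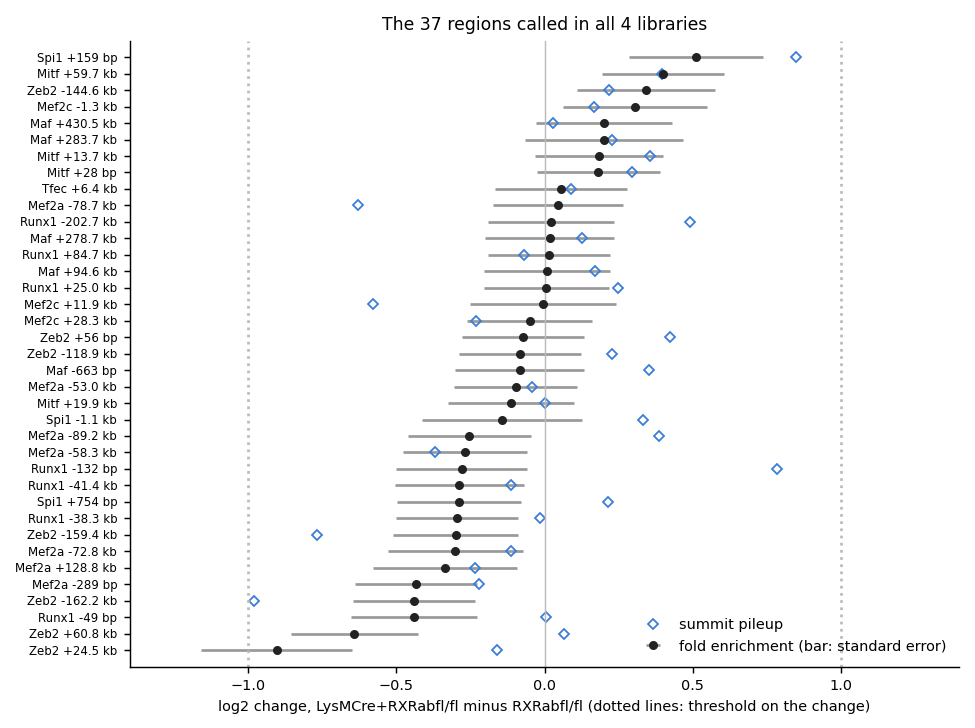
The log2 change (LysMCre+RXRabfl/fl minus RXRabfl/fl) of each of the 37 regions called in all 4 libraries is shown for fold enrichment (black, with its standard error) and for summit pileup (blue diamonds), ordered by the former. No symbol lies beyond the dotted lines at a change of 1, with fold enrichment between -0.90 and 0.51 and Zeb2 -162.2 kb the lowest by pileup at -0.98.

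Whether the libraries of the genotypes overlapped was counted as well. On centred log2 fold enrichment both KO libraries lay above both WT libraries in 3 of the 37 regions, against 22.3% of all regions, and below them in 13, against 32.9% of all. The 3 were Spi1 +159 bp, Mitf +28 bp and Mitf +59.7 kb. The 13 included 5 of the 7 Zeb2 regions, 4 of the 7 Mef2a regions and 3 of the 7 Runx1 regions, with Spi1 +754 bp as the last. Maf, with 5 regions tested, Mef2c, with 3, and Tfec, with 1, had no region in either list. The direction of these counts depends on the centring. Without it, 32 of the 37 log2 changes were above 0 and 5 below, with a median of 0.28 in the 37 and 0.28 in all regions tested.

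Summit pileup was the other measure of the same peaks. It called 2.49% of 15196 regions higher in LysMCre+RXRabfl/fl and 4.98% higher in RXRabfl/fl, and 0 of the 37 regions in either direction, with 5 at an unadjusted p under 0.05. The lowest adjusted p was that of Zeb2 -162.2 kb, with pileups of 94 in WT1, 20 in WT3, 41 in KO1 and 39 in KO2. Its log2 change of -0.98 ± 0.25 (SE, n = 2 per genotype, limma adjusted p = 0.0393) stopped short of 1. Signs were less stable than calls: 15 of the 37 log2 changes were above 0 by fold enrichment and 23 by pileup.

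A region can also differ by being called in one genotype alone. Both KO libraries and neither WT library called 48 of the 223 regions, or 21.5%, against 22.8% of all regions. The opposite pattern, both WT libraries alone, was found in 0 of 223 and in 0.0452% of all regions, or 32 regions. By gene, the first pattern held in 12 Maf, 11 Runx1, 8 Zeb2, 7 Mitf, 4 Mef2a, 4 Tfec, 2 Mef2c and 0 Spi1 regions. The share of the 8 genes was near the background, and the number of peaks per library moved with it. Markers of small peritoneal macrophages or monocytes moved with it too: of 6, 1 had a start region in WT1, 1 in WT3, 5 in KO1 and 5 in KO2, their summed fold enrichment was 15.9, 6.37, 56.4 and 39.3, and Ccr2 had none in any library. The part of depth and of these cells in the result was not tested.

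**Figure D4:**
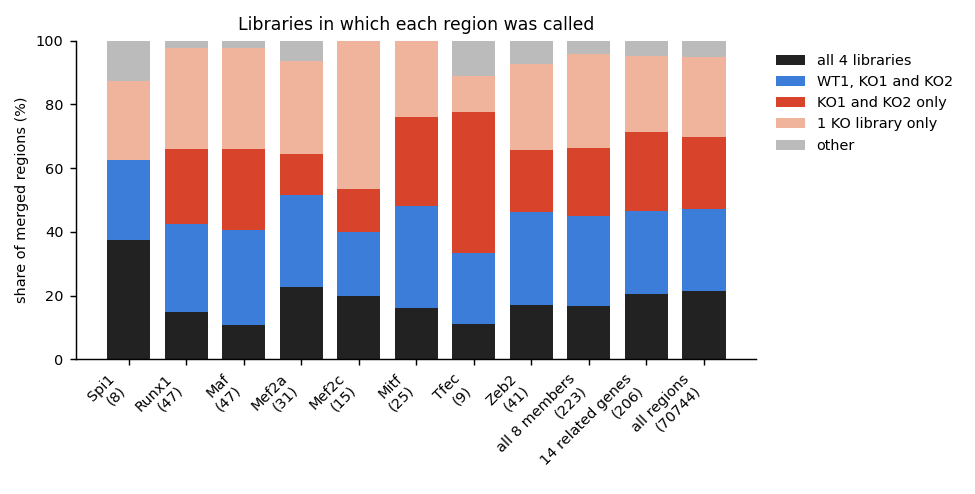
Bars give the share (%) of merged regions by the libraries that called them, for each of the 8 genes, for these together, for 14 related genes and for all regions, with the number of regions in parentheses. The share called by KO1 and KO2 alone is 21.5% in the 8 genes, 24.8% in the related genes and 22.8% in all regions, and runs from 0 in Spi1 to 44.4% in Tfec, where it stands for 4 of 9 regions.

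These regions of the KO libraries were weak ones. Among member regions called in both KO libraries, 10 of the 18 with a mean KO fold enrichment under 5 were missed in both WT libraries, as were 30 of 51 between 5 and 8, 8 of 49 between 8 and 12, and 0 of 30 from 12 up. The same shares over all regions were 66.3%, 54.3%, 22.9% and 4.09%. Of the regions called in KO1 and KO2 alone, the strongest in Tfec (-45.3 kb) and in Maf (+596.3 kb) are given above. In Mitf it was Mitf -47.5 kb with 7.92 in KO1 and 11.5 in KO2, and in Mef2a it was Mef2a +85.1 kb with 11.6 and 6.02. That of Zeb2 (-88.5 kb) had 8.60 and 5.77, that of Runx1 (-258.5 kb) 8.09 and 5.77, and that of Mef2c (-175.3 kb) 9.46 and 6.73.

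The call patterns were then read with the same number of peaks per library, taking the 16097 peaks of lowest q value from each. This left 63 member regions, of which 37 were called in WT1, 38 in WT3, 39 in KO1 and 46 in KO2. Both KO libraries alone called 9 of the 63, or 14.3%, against 7.82% of all regions. Both WT libraries alone called 3 of the 63, against 7.22%. The 9 were 4 Maf regions (+56.5, +151.2, +184.2 and +292.6 kb), 3 intronic Runx1 regions (+21.5, +38.9 and +76.3 kb) and 2 Zeb2 regions (+60.2 and -152.8 kb). The 3 were Zeb2 -159.4 kb, Zeb2 -162.2 kb and Mef2a -78.7 kb.

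Because WT3 had low pileups, regions called in the other 3 libraries were compared as well, with WT1 as the single RXRabfl/fl library. On log2 fold enrichment centred over these regions, WT1 lay below both KO libraries in 29 of 100 member regions, against 32.0% of all regions, and above both in 52, against 49.9%. On fold enrichment that was not centred, a setting added after the data were seen, WT1 lay below both in 43, against 44.3% of all regions, and above both in 25, against 27.1%. By either scale the counts were near those of all regions. On the centred scale WT1 was below both KO libraries in 10 of 19 Maf regions and in 0 of 6 Mef2c and 0 of 5 Spi1 regions, and on the other scale in 11, 0 and 3. The 10 Maf regions were all among the 14 that WT3 had missed, a class in which WT1 was below both, centred, in 50.2% of all regions.

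**Figure D5:**
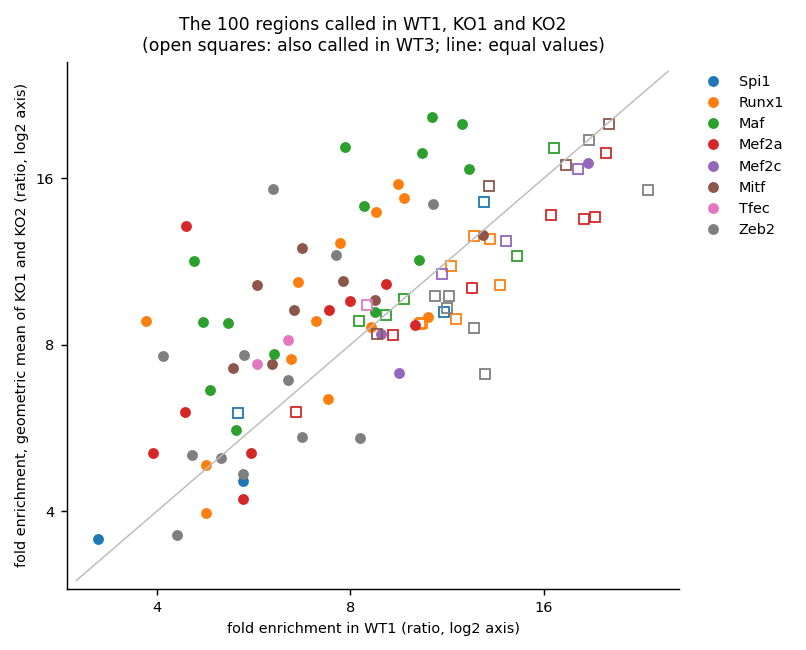
Fold enrichment in WT1, not centred, is set against the geometric mean of KO1 and KO2 for the 100 member regions called in these 3 libraries, on log2 axes, with colour for the gene, open squares for regions also called in WT3 and a line of equal values. Most Maf regions that WT3 missed (filled green circles) lie above the line, and Mef2a -112.1 kb stands farthest above it at 4.44 in WT1.

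In the fit without WT3, 3 of the 100 member regions passed as higher in LysMCre+RXRabfl/fl, against 2.21% of 33263 regions, and 0 as higher in RXRabfl/fl, against 1.21%. Mef2a -112.1 kb (chr7:67484708-67485134) had a fold enrichment of 4.44 in WT1, 14.7 in KO1 and 11.7 in KO2, a log2 change of 1.34 ± 0.24 (SE, n = 1 and 2, limma adjusted p = 0.0283). Zeb2 -102.6 kb (chr2:45219847-45220205) had 6.06, 18.5 and 12.7, a change of 1.11 ± 0.25 (SE, n = 1 and 2, limma adjusted p = 0.0398), and Maf +212.4 kb (chr8:115494277-115494778) had 4.58, 13.1 and 9.88, a change of 1.08 ± 0.24 (SE, n = 1 and 2, limma adjusted p = 0.0399). WT1 was low in all 3 and lay below both KO libraries. The windows of these regions are printed above.

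On pileup without WT3, a fit chosen after the data were seen, Mef2a -112.1 kb and Maf +212.4 kb passed again, with log2 changes of 1.15 and 1.56, and Zeb2 -102.6 kb at 0.96 did not (limma adjusted p = 0.0822). In all, 7 of the 100 member regions passed there as higher in LysMCre+RXRabfl/fl, 4 of them of Maf, against 5.17% of all regions, and 2 as lower, against 7.89%. Maf +56.5 kb was among the higher ones, with pileups of 36 in WT1, 135 in KO1 and 89 in KO2, while Maf +430.5 kb had pileups of 61, 108 and 39. Zeb2 -162.2 kb and Mef2a -78.7 kb were the 2 lower. Each of these calls compares 1 RXRabfl/fl library with 2 of the other genotype.

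Motif words within 100 bp of the summits were counted in the 8 genes and in all regions. The RUNX word lay in 22.4% of the 223 regions and in 17.1% of all regions, the AP-1 word in 17.5% against 12.7%, the C/EBP word in 15.2% against 11.1%, the PU.1 word in 8.97% against 9.30% and the GATA word in 8.07% against 6.44%. The CTCF word was in 1.35% against 5.33%. Median GC content of the windows was 49.8% in the 8 genes and 51.7% in all regions.

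Words of a factor in the regions of its own gene were counted too. The RUNX word was in 15 of 47 Runx1 regions, the distal promoter among them, against 17.1% of all regions, and the ZEB word in 7 of 41 Zeb2 regions, Zeb2 +60.8 kb and Zeb2 +24.5 kb among them, against 7.26% of all. The PU.1 word was in 1 of 8 Spi1 regions (Spi1 +6.8 kb) against 9.30% of all, and the MAF half-site in 3 of 47 Maf regions against 5.73%. The MEF2 element was in 0 of 31 Mef2a and 0 of 15 Mef2c regions against 1.30% of all, and the MITF word in 0 of 25 Mitf and 0 of 9 Tfec regions against 2.44%. DR1, the repeat bound by RXR homodimers, was matched in a single member region (Runx1 +84.7 kb) and DR5, the repeat of RAR and RXR, in another (Runx1 +48.8 kb), against 0.164% and 0.151% of all regions. Runx1 +84.7 kb had fold enrichments of 13.2 in WT1, 6.91 in WT3, 14.4 in KO1 and 10.7 in KO2, with a log2 change of 0.01. Runx1 +48.8 kb was weaker, called in WT1 at 5.48 and KO2 at 6.03 and in neither WT3 nor KO1.

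In the regions called by KO1 and KO2 alone, the PU.1 and AP-1 words were each in 10 of 48 member regions, or 20.8%, against 10.5% of all such regions for either word. Those with the PU.1 word lay mostly at Maf (+138.3, +169.9, +283.1, +299.2, +360.4 and +395.7 kb). The rest were Tfec +1.8 and +8.7 kb, and Mitf +7.3 and -20.3 kb. Other words went the other way among the 48: ZEB was in 2.08% against 8%, GATA in 2.08% against 5.6%, C/EBP in 4.17% against 9.48% and CTCF in 0 against 7.02%. In the 37 regions called in all 4 libraries the PU.1 word was in 0, against 7.27% of all such regions, and the RUNX word in 13, against 14.3%. These are counts of letters, and no test was made.

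For comparison, 14 related genes were counted in the same way: paralogs (Spib, Spic, Runx2, Runx3, Mef2b, Mef2d, Tfeb, Zeb1), the RUNX partner Cbfb, the myeloid factors Fli1, Etv6, Irf8 and Cebpa, and Csf1r, the receptor of the growth factor of macrophages. They held 206 regions, of which 42 were called in all 4 libraries and 51, or 24.8%, in the KO libraries alone. By fold enrichment 0 of the 42 passed in either direction. By pileup 7 of the 42 passed as higher in LysMCre+RXRabfl/fl, against 2.49% of all regions, and 1 as lower, against 4.98%. Irf8 had 11 of 28 regions called in the KO libraries alone, Etv6 8 of 39 and Runx3 7 of 23, against 22.8% of all regions.

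Among 1831 other genes with at least 10 regions, those whose shares of regions called in the 4 libraries were closest to the pooled shares of the 8 genes, by Euclidean distance, were A230108P19Rik, Art3, Arid5b, Cdk6 and Mbp. The first 2 overlap and had the same 13 regions, of which 46.2% were called in WT1, 15.4% in WT3 and 84.6% in each KO library. The pooled shares of the 8 genes were 48.9%, 17.0%, 83.4% and 82.5% in WT1, WT3, KO1 and KO2.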

How the data were processed

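The 4 libraries are ATAC-seq of sorted LPMs. The authors trimmed adaptors (cutadapt 1.7), aligned read pairs to mm10 (GRCm38) with Bowtie2, removed duplicate reads together with those from mitochondria and from X and Y, and called peaks per library with MACS2 2.1.1 (extension 200 bp, q value 0.05). Versions are those of the submitters' processing notes and the study's methods. For each peak the deposited lists hold the fold enrichment of its summit, a ratio to local background. The lists deposited by the authors also hold the −log10 p-value and −log10 q-value of each peak, the offset of the summit and an integer score, which was not used. The edgeR test of the study ran on read counts, which are not analysed here.

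Peaks sharing 1 bp were merged and placed on 45756 RefSeq transcripts (NM and NR) of the same build. Where a library had several peaks in a region, the highest was used. For each library the median over regions called in all 4 was subtracted from log2 fold enrichment, and genotypes were compared by limma 3.58.1 with Benjamini-Hochberg adjustment (R 4.3.3). Missing peaks were not imputed. Pileups were solved as whole numbers from fold enrichment and p with the MACS2 pseudocount of 1. Fits, pileups and motif matching were tested on simulated data. Motif words were searched on both strands of windows of 201 bp. Named regions are each gene's start regions, its strongest region (highest mean log2 fold enrichment over the libraries that called it), its strongest region called in KO1 and KO2 alone, and the highest and lowest log2 change; Spi1 +754 bp, Mef2c -1.3 kb, Maf +430.5 kb, Zeb2 -144.6 kb, Tfec +6.4 kb, the windows printed and regions called under alternatives were named after their values were seen. The 8 genes and all lists were chosen with earlier results of these data known. The depth of the reads is unknown here. Summit pileups and the lowest solved background ranked the libraries differently, and neither was taken as its measure. No interval is given for that reason. A gene of the list of related factors is not reported here.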

Additional observations from a re-analysis of the deposited data

How the results depend on the processing

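The count of member regions past the limma threshold was 0. It stayed 0 on summit pileup, without centring, with quantile normalization, at a q value under 0.01 and with a mean-variance trend. It was also 0 with each peak narrowed to its summit and 100 bp around, and by the adjusted p with no limit on the change. Either way of assigning regions to genes gave 0 as well. In the main fit 0.0395% of all regions passed as higher in LysMCre+RXRabfl/fl and 0.0461% as higher in RXRabfl/fl. Without centring the lowest limma adjusted p of the 37 was 0.965. So few calls could be made in those fits that the 0 there says little. Leaving out 1 library each gave 0 to 3 calls: 3 without WT3, 1 without WT1, 0 without KO1 and 0 without KO2. Summit pileup combined with leaving out WT3, chosen after the data were seen, gave 9. The 48 of 223 regions called in both KO libraries alone became 9 of 63 with equal numbers of peaks, or 14.3% against 7.82% of all regions. With overlap of the gene body as the only rule they became 16 of 104, or 15.4%. With 1 library left out they ranged from 48 of 223 to 111 of 222, the latter without WT1. The 37 regions called in all 4 libraries became 23 of 63 with equal numbers of peaks and 20 of 104 with gene body overlap. With 1 library left out they ranged from 37 to 100, the highest without WT3 at 100 of 223. Shares of all regions are given only for the main setting and the 9 of 63. Without centring, WT1 lay above both KO libraries in 25 member regions in place of 52, and below both in 43 in place of 29, a setting added after the data were seen. The counts of 16 and 20 come from the smaller set of 104 regions.

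Among 11 named regions tested, 94 of 110 alternative fits kept sign and call, 15 changed sign with no call and 1 added a call, Zeb2 +24.5 kb without WT1. On pileup the log2 change became 0.78 at Runx1 -132 bp, 0.0045 at Runx1 -49 bp, 0.0661 at Zeb2 +60.8 kb, 0.42 at Zeb2 +56 bp, 0.33 at Spi1 -1.1 kb and 0.35 at Maf -663 bp. Without centring, which moves the median of all regions from -0.09 to 0.28, it became 0.0879 at Runx1 -132 bp, 0.29 at Zeb2 +56 bp, 0.22 at Spi1 -1.1 kb, 0.27 at Mef2a -53.0 kb and 0.28 at Maf -663 bp. Spi1 -1.1 kb also turned to 0.0088 with quantile normalization. With 1 library left out, its values ran from -0.5652 to 0.0228 (without KO1), those of Spi1 +159 bp from -0.0579 (without WT3) to 0.7477, and Mitf +28 bp was -0.24 without WT3. The cause was not tested. No paired analysis was possible because the groups share only 1 replicate number. A peak that was not called has no value in the lists, so a region missed in WT3 may be open below the limit of that library.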
